A study of Mus musculus with 7 samples.

Results

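Gfi1 and Gfi1b are the mouse genes for a pair of closely related zinc finger repressors of blood development. The data were peak lists from CUT&Tag, an assay in which an antibody directs a transposase to cut and tag the DNA around a bound protein. The loci were selected on the values described here: every peak of either list with its summit inside the gene or within 100 kb of the gene start, with its position, fold enrichment, rank, GATA motif and overlap between lists. By this rule the 2 genes, of 21938 protein-coding genes of GENCODE M21 on mm10 (GRCm38), held 12 of the 6254 peaks found with GATA2 and 0 of the 1079 peaks found with 9aa-Ins. Since these values chose the members, all of them are given as a description without a test.

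The cells were hi–77−/− progenitors, Hoxb8-immortalized hematopoietic progenitors from mouse fetal liver, kept in medium with β-estradiol, and lacking the –77 enhancer of Gata2 on both alleles. They were rescued with a retrovirus for HA-tagged GATA2 or for HA-tagged 9aa-Ins, which carries 9 extra amino acids in the spacer between the zinc fingers of GATA2. GFP+ cells were sorted after 3 days, pooled for each construct and then split into 2 replicates, so that the replicates of a construct shared infection and sorting. The analysed lists came from anti-HA antibody, 1 list for each construct with both replicates merged, and 3 anti-GATA2 libraries were not analysed here. The lists therefore carry no replicate error, the constructs were expressed from a virus, and no cell type could be checked against markers because peaks are not expression.

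GATA2 is a zinc finger activator and repressor of blood stem and progenitor cells that recognizes the motif WGATAR. GFI1 and GFI1B carry an N-terminal SNAG domain that recruits LSD1 and CoREST, a histone demethylase and its partner, to repress target genes. GFI1 is known for its part in stem cell quiescence and in neutrophil and lymphoid development, and GFI1B for its part in erythroid and megakaryocytic development. Each is known to repress its own gene and that of the other. Both loci are known to be controlled by distal elements, upstream of Gfi1 in and near Evi5 and downstream of Gfi1b, that bind several blood transcription factors.

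The 7 summits with WGATAR are shown first, because the results below turn on what lay under the tallest peaks. Each line gives the mm10 sequence on the minus strand, which is the strand both genes are transcribed from, 5′ to 3′ with the summit in the middle and every WGATAR on either strand in capitals. WGATAR stands for AGATAA and TGATAA and for the same words ending in G. A match on the opposite strand appears as its reverse complement, such as TTATCA. Names give the distance of the summit from the gene start.
Gfi1 33.3 kb upstream, chr5:107759227-107759357: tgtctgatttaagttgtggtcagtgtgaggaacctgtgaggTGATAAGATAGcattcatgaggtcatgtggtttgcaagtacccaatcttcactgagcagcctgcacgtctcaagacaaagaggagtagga
Gfi1 23.4 kb upstream, chr5:107749395-107749525: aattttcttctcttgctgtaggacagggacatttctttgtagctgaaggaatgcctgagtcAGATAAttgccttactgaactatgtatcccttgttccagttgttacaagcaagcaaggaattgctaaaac
Gfi1b 79.9 kb upstream, chr2:28701771-28701901: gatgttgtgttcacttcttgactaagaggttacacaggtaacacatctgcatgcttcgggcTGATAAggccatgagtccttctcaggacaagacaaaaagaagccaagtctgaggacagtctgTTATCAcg
Gfi1b 19.7 kb downstream, chr2:28602239-28602399: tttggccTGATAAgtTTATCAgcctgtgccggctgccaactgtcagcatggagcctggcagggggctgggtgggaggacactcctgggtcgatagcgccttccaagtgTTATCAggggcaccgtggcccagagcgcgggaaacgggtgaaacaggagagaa
Gfi1b 22.6 kb downstream, chr2:28599337-28599467: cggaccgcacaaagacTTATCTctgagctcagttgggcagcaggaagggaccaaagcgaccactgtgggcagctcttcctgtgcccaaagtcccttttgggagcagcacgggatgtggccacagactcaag
Gfi1b 23.6 kb downstream, chr2:28598267-28598397: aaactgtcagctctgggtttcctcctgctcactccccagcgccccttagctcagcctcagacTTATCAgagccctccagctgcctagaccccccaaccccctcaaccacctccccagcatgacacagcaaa
Gfi1b 25.8 kb downstream, chr2:28596142-28596272: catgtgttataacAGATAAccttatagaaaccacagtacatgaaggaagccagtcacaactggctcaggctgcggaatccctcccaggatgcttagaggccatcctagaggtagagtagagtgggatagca

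In these lists the height of a peak is its pileup, the number of reads over its summit, which was recovered from the deposited fold enrichment. With GATA2 the lowest, median and highest pileups were 9, 15 and 166 reads, and with 9aa-Ins they were 9, 13 and 132 reads. The background of the peak caller was 0.464 and 0.455 reads, and it stood in for depth, since read totals were not used here. The 95% intervals below are exact Poisson intervals of the pileup and cover counting error only.

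At Gfi1 (ENSMUSG00000029275.18, chr5:107716657-107726036, minus strand, 9.38 kb), 5 GATA2 peaks lay within reach, and 1 of them stood far above the others. This peak (chr5:107759074-107759967) had its summit 33.3 kb upstream of the gene start, in an intron of Evi5, a gene for a cell cycle and membrane traffic regulator that lies upstream on the same strand. Its pileup was 85 reads (95% interval 67.9 to 105), its fold enrichment 58.8 and its −log10 q-value 153. It ranked 10th of the 6254 GATA2 peaks by fold enrichment, with no other peak of equal value, and held 60.3% of the 141 reads summed over the 5 summits. The summit was 14.5 kb inside the end of Evi5 and 116 kb from the start of Evi5, so that the Gfi1 start was the nearest of any protein-coding gene.

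The other 4 peaks near Gfi1 had 12 to 17 reads, close to the list median of 15. The second peak in Evi5 (chr5:107749368-107749850), 23.4 kb upstream, had 12 reads (6.2 to 21), a fold enrichment of 8.88 and rank 4520, which 631 peaks shared. The remaining 3 lay around the gene start, within a stretch of 2.79 kb, and added up to 44 reads. The first of them (chr5:107726848-107727127), 0.929 kb upstream, had 13 reads (6.92 to 22.2) and fell on an exon of A430072P03Rik, a noncoding gene of the plus strand that overlaps Gfi1. The second (chr5:107724764-107725994), 0.599 kb downstream in an intron of Gfi1, had 17 reads (9.9 to 27.2) and a width of 1231 bp, against a list median of 341 bp. The third (chr5:107724112-107724393), 1.86 kb downstream, had 14 reads (7.65 to 23.5) and lay on a UTR exon of 1 of the 4 transcripts under its summit. The intervals of these 4 small peaks overlapped one another, so their order in height is not resolved at this depth, and the interval of the peak at 33.3 kb overlapped none of them.

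**Figure D1:**
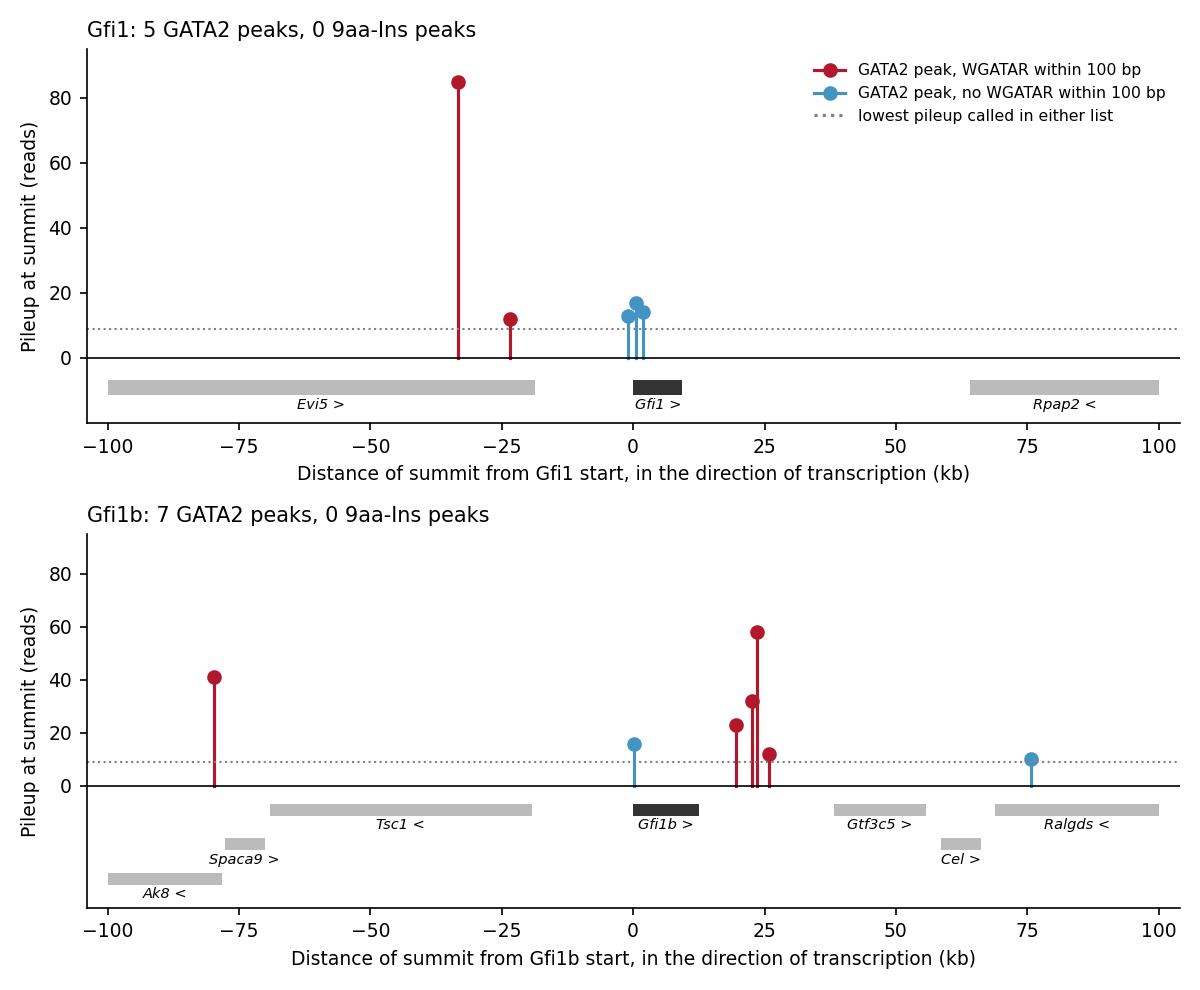
Pileup at the summit (reads) of each GATA2 peak against its distance from the start of Gfi1 (top) or Gfi1b (bottom), with bodies of protein-coding genes as bars below, arrows for the direction of transcription, and red for peaks with WGATAR within 100 bp of the summit. At Gfi1 1 peak of 85 reads stands over the body of Evi5 while the other 4 have 12 to 17 reads, and at Gfi1b 4 peaks of 12 to 58 reads stand together beyond the end of the gene; the dotted line is the lowest pileup in either list, 9 reads.

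At Gfi1b (ENSMUSG00000026815.14, chr2:28609450-28621982, minus strand, 12.5 kb), 7 GATA2 peaks lay within reach, and the reads were spread over more of them. The tallest peak held 30.2% of the 192 reads summed over the summits. It stood in a run of 4 intergenic peaks beyond the end of the gene, with summits from 7.13 kb to 13.2 kb past the last base of Gfi1b and 6.11 kb from first to last. These 4 peaks summed to 125 reads. The one nearest to the gene (chr2:28602234-28602622), 19.7 kb downstream of the start, had 23 reads (14.6 to 34.5), a fold enrichment of 16.4 and rank 922. The next (chr2:28598921-28599864), at 22.6 kb, had 32 reads (21.9 to 45.2), a fold enrichment of 22.5 and rank 307. The tallest (chr2:28597807-28598700), at 23.6 kb, had 58 reads (44 to 75), a fold enrichment of 40.3 and rank 41, in the top 0.656% of the list. The last (chr2:28595985-28596284), at 25.8 kb, had 12 reads (6.2 to 21) and rank 4520. The intervals of neighbours in height overlapped in this run. Those of 12 and 32 reads, and of 23 and 58 reads, did not.

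The other 3 peaks of Gfi1b lay at the gene start and at both far ends of the reach. The peak at the start (chr2:28621675-28621957) had its summit 0.119 kb downstream, on a UTR exon of all 3 transcripts that reach this base, with 16 reads (9.15 to 26), a fold enrichment of 11.6 and rank 2444. The upstream peak (chr2:28701410-28702192), at 79.9 kb, had 41 reads (29.4 to 55.6), a fold enrichment of 28.7 and rank 132, and lay in an intron of Ak8, an adenylate kinase gene, only 1.67 kb from the Ak8 start. The downstream peak (chr2:28545924-28546428), at 75.8 kb in an intron of Ralgds, a gene for an exchange factor of Ral GTPases, was the lowest, with 10 reads (4.8 to 18.4), a fold enrichment of 7.51 and rank 5720. It was also the only one of the 12 with a q-value above 1e-10.

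Distance does not say which gene a peak acts on, and the loci differed in this respect. All 5 peaks near Gfi1 had the Gfi1 start as the nearest start of a protein-coding gene, and only 1 of the 7 near Gfi1b had that of Gfi1b. For the 4 peaks of the run the nearest start was that of Gtf3c5, a gene for an RNA polymerase III transcription factor subunit, 12.5 to 18.6 kb away. For the far downstream peak it was that of Cel, a pancreatic lipase gene, 17.2 kb away. The start of Tsc1, a growth regulator and tumor suppressor gene, lies 19.2 kb from that of Gfi1b on the other strand, and it had the same number of peaks within reach, 7.

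The peaks just inside and outside the limit were as follows. The farthest peak inside was 33.3 kb from the start of Gfi1 and 79.9 kb from that of Gfi1b. The nearest GATA2 peaks outside lay 143 kb upstream of Gfi1 with 20 reads and 128 kb downstream with 12 reads. For Gfi1b the nearest outside lay 503 kb upstream with 12 reads and 877 kb downstream with 14 reads.

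The 2 tallest peaks stood in the top 1% of the list by fold enrichment, and 4 of the 12 stood in the top 5%. Of the 12, 7 had at least the median pileup of 15 reads, so 5 were below it. No word of 32 bases within 100 bp of any of the 12 summits occurred again in the genome. The 4 smaller peaks of Gfi1 ranked from 2111 to 4520, and the lowest peak of Gfi1b ranked 5720.

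**Figure D2:**
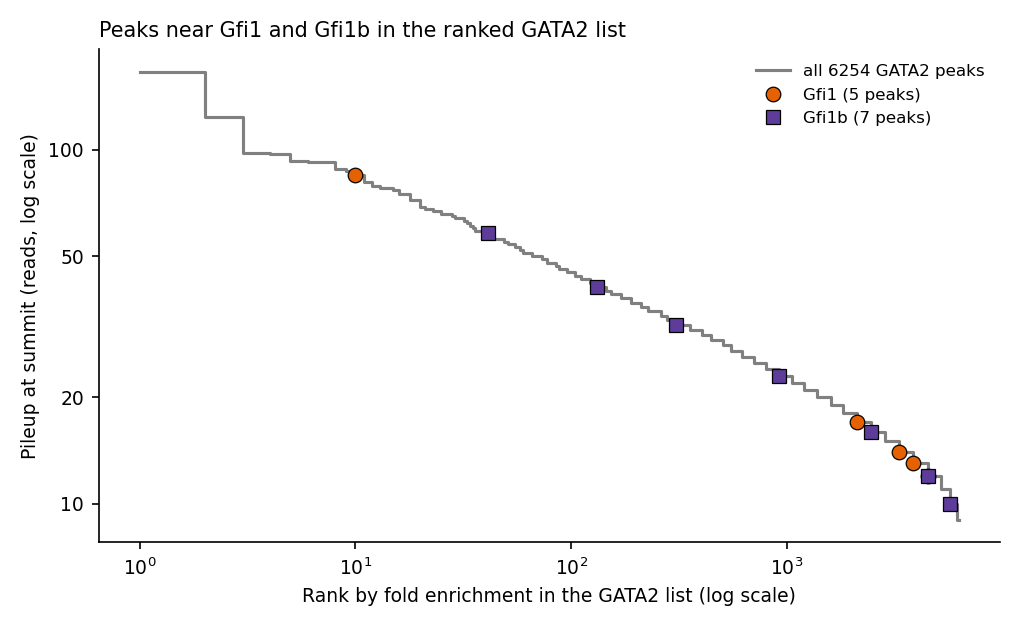
Pileup at the summit (reads, log scale) of all 6254 GATA2 peaks against rank by fold enrichment (log scale), with the 12 peaks near Gfi1 (circles) and Gfi1b (squares). The tallest peaks rank 10 and 41 and the lowest ranks 5720; the Gfi1 and Gfi1b peaks of 12 reads share rank 4520 and lie on top of each other.

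Across all protein-coding genes, 52.1% had at least 1 GATA2 peak within 100 kb of the start. At least 5 peaks, as at Gfi1, were found for 7.41% of genes (1626), and at least 7, as at Gfi1b, for 2.92% (640). A summed pileup as large as that of Gfi1 was found for 393 genes (1.79%), and one as large as that of Gfi1b for 196 genes (0.893%). Genes that lie close together share peaks, so these counts are not of independent genes. Of all GATA2 peaks, these loci included, 2.21% were among 4 summits within 6.11 kb and 2.38% among 3 summits within 2.79 kb.

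**Figure D3:**
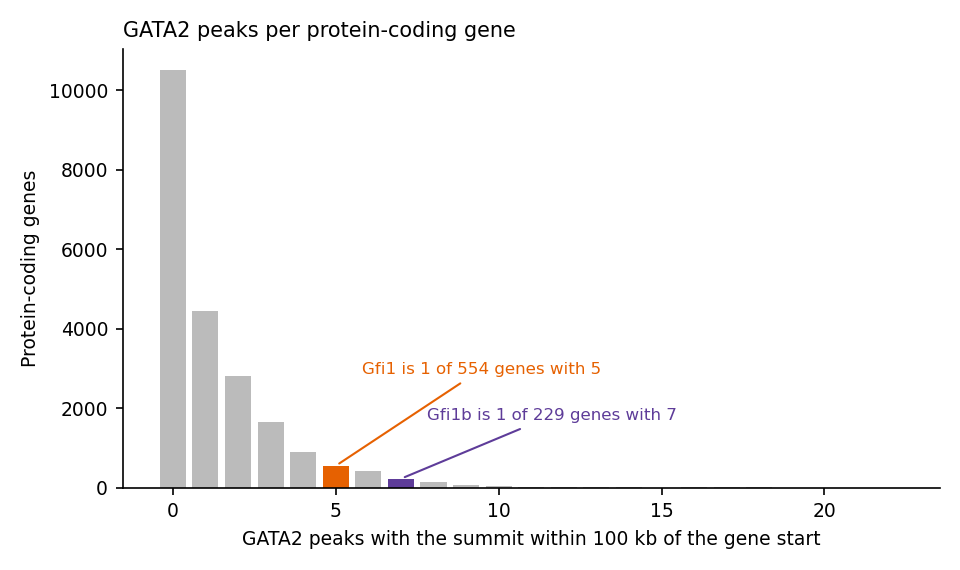
Number of protein-coding genes against the number of GATA2 peaks with the summit within 100 kb of the gene start. The tallest bar is that of 10506 genes with 0 peaks; Gfi1 is 1 of 554 genes with 5 and Gfi1b is 1 of 229 genes with 7.

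No 9aa-Ins peak lay within 100 kb of either gene. Thus 0 of the 12 GATA2 peaks overlapped a 9aa-Ins peak by at least 1 bp. Over the whole GATA2 list, 84.7% of peaks overlapped none and 15.3% overlapped 1, so the count at these loci is near the background and is no result about Gfi1 and Gfi1b. The nearest 9aa-Ins peaks were far away, 3040 kb upstream and 2030 kb downstream of the start of Gfi1, and 1250 kb upstream and 1980 kb downstream of that of Gfi1b. At the level of genes, 18.6% of protein-coding genes had a 9aa-Ins peak within 100 kb. Of the 1626 genes with at least 5 GATA2 peaks, 420 (25.8%) had no 9aa-Ins peak, and of the 640 with at least 7, 85 (13.3%) had none.

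How far the lists could have shown these peaks with 9aa-Ins depends on their height. The pileup of each was placed on the 9aa-Ins background, by the ratio of the backgrounds, and set against the lowest 9aa-Ins pileup of 9 reads. The Gfi1 peak at 33.3 kb upstream came to 83.4 reads, 9.27 times that limit. The tallest Gfi1b peak came to 56.9 reads, 6.32 times the limit, and the Gfi1b peak at 79.9 kb upstream to 40.2 reads, 4.47 times the limit. For 6 of the 12 peaks, those of 17 reads or more, the whole interval lay above 9 reads. For the peak of 17 reads its lower end was 9.72 reads. The interval leaves out the counting error of a 9aa-Ins count, so near the limit it does not tell absence from counting error. Of all GATA2 peaks, 2443 (39.1%) had 17 reads or more, and 70.4% of these overlapped no 9aa-Ins peak, so absence at this height is common over the list. For the other 6, of 10 to 16 reads, the interval reached below 9 reads, and their absence from the 9aa-Ins list could not be told from counting error at this depth. Read counts under the 9aa-Ins threshold at these sites were not analysed here.

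**Figure D4:**
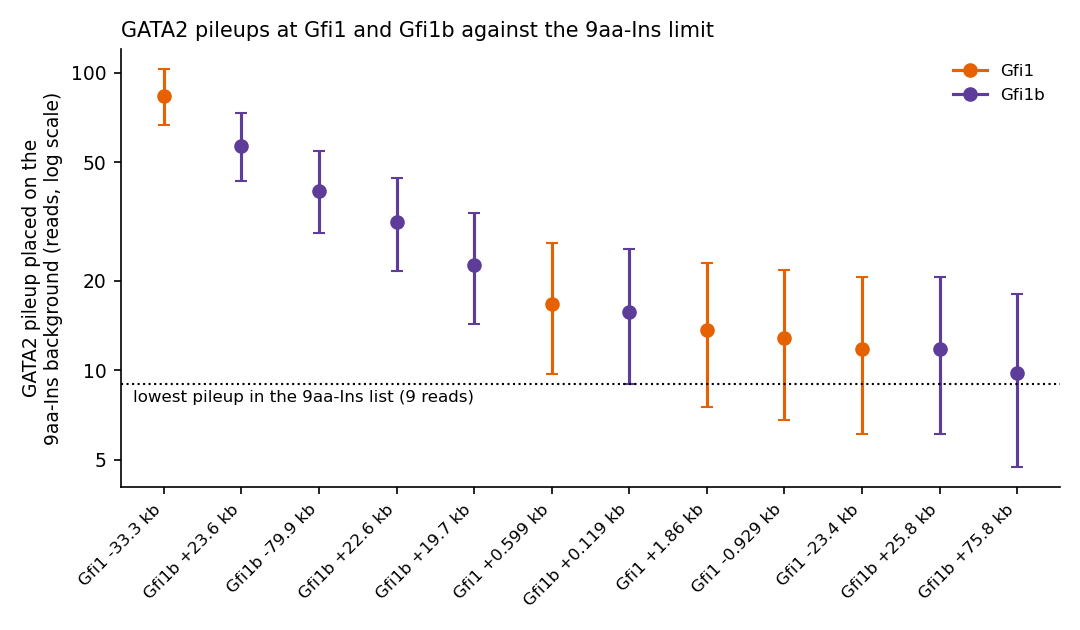
GATA2 pileup of each of the 12 peaks placed on the 9aa-Ins background (reads, log scale), with exact 95% Poisson intervals, ordered by height and named by the distance of the summit from the gene start, upstream being negative. The 6 tallest lie with their interval above the dotted line at 9 reads, below which no 9aa-Ins peak was called, and the other 6 have intervals that reach below it.

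Of the 10 GATA2 peaks with at least 85 reads, 4 overlapped a 9aa-Ins peak, and of the 41 with at least 58 reads, 24 (58.5%) did. Among peaks of at least 58 reads outside promoters with WGATAR, like the tallest at each of these loci, 5 of 20 (25%) overlapped one. Ranked among the 5296 GATA2 peaks that overlapped none, the tallest Gfi1 peak was 6th and the tallest Gfi1b peak was 17th. These ranks use the overlap that chose the members and are a description.

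Of the 12 peaks, 7 had WGATAR no more than 100 bp from the summit, 2 at Gfi1 and 5 at Gfi1b, and in 30.3% of all GATA2 peaks. Position relative to promoters goes with this share. Promoters, taken as 2 kb upstream to 100 bp downstream of a protein-coding transcript start, held 3 of the 12 peaks and 50.4% of all peaks. None of the 3 promoter peaks had WGATAR, against 13.9% of all promoter peaks, and 7 of the 9 others had it, against 47% of all peaks outside promoters. Height goes with the share too: WGATAR was near 17.9% of summits of 9 reads, 29.7% of 15 reads and 50% of 35 reads. All 4 member peaks in the top 5% of the list had it, and peaks of like height were not compared. The far downstream peak of Gfi1b and the Gfi1 peak 0.599 kb downstream each held WGATAR elsewhere in the peak but not near the summit.

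The motif was close to the summit in several of the 7 sequences. Its centre was 0.5 bp from the summit in the tallest Gfi1b peak, and 1.5 bp away both in the Gfi1b peak at 79.9 kb and in the smaller Evi5 peak. In the tallest Gfi1 peak it was 16.5 bp away. The peaks at 19.7, 22.6 and 25.8 kb downstream of Gfi1b had it 30.5, 46.5 and 49.5 bp away. Thus 4 of 7 had it within 25 bp, and the median was 16.5 bp, against 32.6% within 25 bp and a median of 39.5 bp over the 1893 GATA2 peaks with WGATAR.

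Pairs of WGATAR were seen in 1 peak at each locus, in different arrangements. In the tallest Gfi1 peak a TGATAA and an AGATAG overlapped by 1 base as TGATAAGATAG, a pattern searched for only after this sequence was seen. Such an overlap on either strand was present near 8 GATA2 summits (0.128%). The E-box of this peak (CANNTG, the motif of TAL1, MYC and related factors) covered the summit, with 12 bases between it and the WGATAR pair. In the Gfi1b peak at 19.7 kb downstream, TGATAAGTTTATCA, a TGATAA and its reverse complement with 2 bases between them, was found 60 to 73 bp from the summit; a WGATAR pair at most 5 bp apart was present near 0.688% of summits.

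At Gfi1b, 4 of the 5 peaks with WGATAR held it after an E-box, both on 1 strand and 6 to 14 bp apart, the composite arrangement described for GATA factors with TAL1. Near all GATA2 summits this composite, which contains both an E-box and a WGATAR, was found in 3.01%, and in 12% of those outside promoters with WGATAR. It read CATCTGCATGCTTCGGGCTGATAA with a spacer of 12 bp in the peak at 79.9 kb upstream. On the opposite strand it read CAGCTGGAGGGCTCTGATAA with a spacer of 8 bp in the tallest peak, where its WGATAR is the one at the summit. The spacer was 7 bp in both other peaks, as CAACTGAGCTCAGAGATAA on the opposite strand at 22.6 kb downstream and CATGTGTTATAACAGATAA at 25.8 kb. No such composite was found in the 2 Gfi1 peaks with WGATAR, which are too few to show a difference from Gfi1b. In the tallest Gfi1 peak the E-box came after WGATAR and not before it. The 4 spacers come from 1 locus and are not independent loci.

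**Figure D5:**
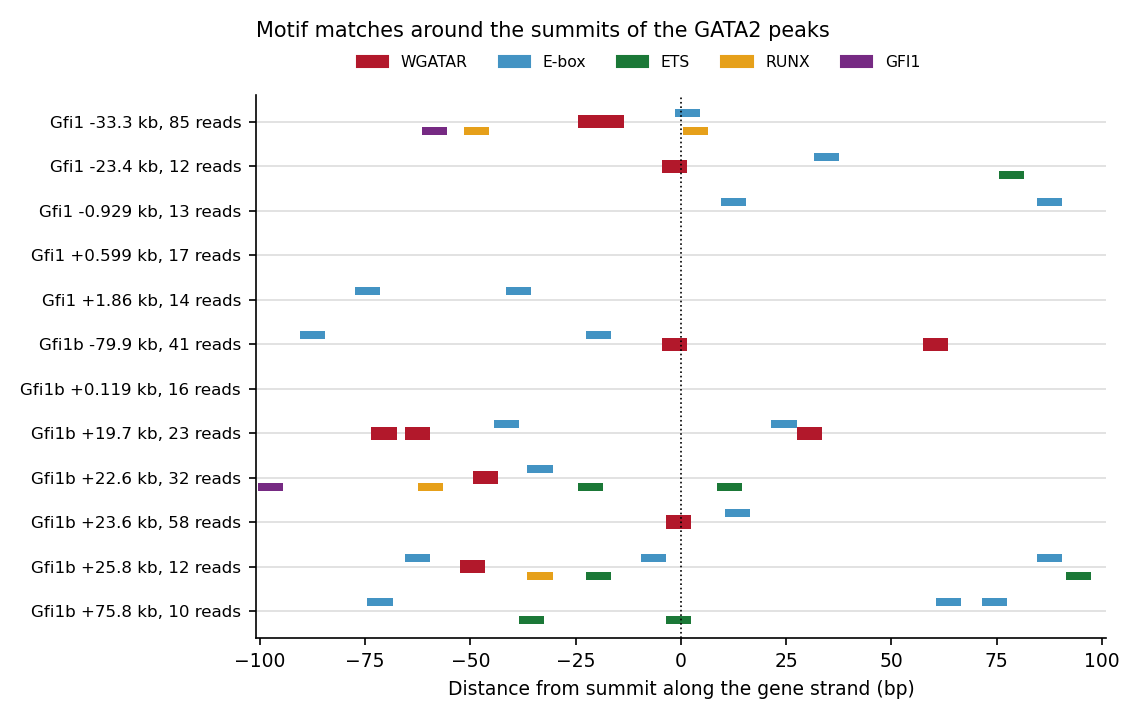
Positions of motif matches on either strand within 100 bp of the summit of each of the 12 GATA2 peaks, along the strand of the gene (bp), with WGATAR in red on the line, E-boxes above it and ETS, RUNX and GFI1 motifs below it. WGATAR covers the summit of 3 peaks and has its centre within 50 bp of the summit in 4 more, and the peaks 0.599 kb from the Gfi1 start and 0.119 kb from the Gfi1b start hold none of these motifs.

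Motifs of other blood factors were searched in the same windows on both strands. The GATA core, which every WGATAR contains, was near 9 of the 12 summits and 48.2% of all. The E-box was near 10 of the 12 and 53.9% of all. An ETS motif (AGGAAG or CGGAAG, for PU.1 and related factors) was near 4 of the 12 and 40.8% of all. A RUNX motif (TGTGGT or TGCGGT) was near 3 of the 12 and 21.7% of all, among them the tallest Gfi1 peak, where it overlapped the E-box at the summit. The GFI1 motif AAATCA was near 2 summits, the tallest Gfi1 peak and the Gfi1b peak at 22.6 kb downstream, and near 4.45% of all. The peaks at 22.6 and 25.8 kb downstream of Gfi1b each held WGATAR, E-box, ETS and RUNX matches together. A match is a stretch of letters and not a bound site.

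The Gfi1b promoter is shown because GATA factors and GFI1B itself are known to bind there, and because its motifs lay outside the peak called at the start. The line gives the 200 bases before the start on the minus strand, with TGATAA and AAATCA in capitals.
Gfi1b promoter, chr2:28621983-28622182: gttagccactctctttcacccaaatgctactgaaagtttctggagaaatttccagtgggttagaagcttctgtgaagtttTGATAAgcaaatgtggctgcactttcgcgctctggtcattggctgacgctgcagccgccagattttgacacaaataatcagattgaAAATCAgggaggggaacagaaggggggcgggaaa
In the RefSeq promoter windows of GRCm38.p6, from 250 bases before to 50 after a start, TGATAA began 120 bases before the Gfi1b start and AAATCA 34 bases before it. WGATAR was present in 29.8% of all 32851 such windows and AAATCA in 14%. The peak called at the start covered 25 to 307 bp into the gene and so did not reach either match. Neither of the 2 RefSeq windows of Gfi1 held WGATAR or AAATCA.

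The genes whose values were most like those of Gfi1 and Gfi1b were found over 4 values per gene, the counts of GATA2 and 9aa-Ins peaks and the summed pileup of each list, as a distance on the log2(value + 1) scale. For Gfi1 the closest was Stil, a centriole gene that neighbours Tal1, at a distance of 0.04, with 5 GATA2 peaks, 137 reads in all, 69 at the tallest and WGATAR in 2. The red cell membrane gene Gypc and Gm35060, which share their peaks, followed at 0.17 with 5 peaks, 159 reads in all and 88 at the tallest. For Gfi1b the closest was Cadm4, a cell adhesion gene, at 0.27, with 6 peaks, 169 reads in all and 92 at the tallest. Gata2 itself came next at 0.34, with 8 peaks and 156 reads in all but only 33 at the tallest, followed by Amigo3, tied with Gm20662 and Gmppb at 0.36. Since 2 of the 4 values are of 9aa-Ins and were 0 at Gfi1 and Gfi1b, the choice itself favours genes without a 9aa-Ins peak.

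The partners of GFI1 and GFI1B were looked at through 3 lists, and each was read against 52.1% of all genes with a GATA2 peak and 18.6% with a 9aa-Ins peak within 100 kb. Of 13 genes for LSD1 and CoREST complex proteins, 11 (84.6%) had a GATA2 peak and 3 (23.1%) a 9aa-Ins peak. Kdm1a, the gene for LSD1, had 1 GATA2 peak, 50.4 kb upstream, with 18 reads and WGATAR. Rcor1, the gene for CoREST, and the deacetylase genes Hdac1 and Hdac2 had peaks of 19, 11 and 20 reads 0.097, 0.127 and 0.159 kb upstream of their starts, none with WGATAR. Hmg20b, another CoREST complex gene, had a peak of 11 reads 0.297 kb upstream of its start, also without it. The peaks nearest to the starts of Gfi1 and Gfi1b, with 17 and 16 reads, also had no WGATAR within 100 bp of the summit. Its lack is common at promoters, where 13.9% of all GATA2 peaks had it. The tallest GATA2 peak within reach of Hmg20b had 44 reads, 28.2 kb upstream and without WGATAR. Within 10 kb of the start, 7 of the 13 had a GATA2 peak, against 21.7% of all genes, and 0 had a 9aa-Ins peak, against 5.53%.

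The remaining corepressor genes with peaks were Rcor2, Zmym2, Zmym3, Ehmt2, a histone methyltransferase gene, and Gse1. Their nearest GATA2 peaks were 4.06 to 73.8 kb from the start and had 11 to 17 reads. Of these, Zmym3 had WGATAR under its nearest peak and Gse1 had a nearest peak that was shared with 9aa-Ins. The tallest peak within reach of Gse1, 97.2 kb downstream, had 42 reads and WGATAR and, like the tallest peaks of Gfi1 and Gfi1b, overlapped no 9aa-Ins peak.

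Of the 8 listed genes for SNAG-domain zinc finger proteins other than Gfi1 and Gfi1b, 4 (50%) had a GATA2 peak and 1 (12.5%) a 9aa-Ins peak. The 4 with GATA2 peaks were Snai1, Snai3, Scrt1 and Ovol1, and their nearest peaks, 10.5 to 93.9 kb from the start, had 10 to 14 reads and no WGATAR. Within 10 kb of the start 0 of the 8 had a GATA2 peak, against 21.7% of all genes, and a count of 0 in so few genes is near that background. The tallest peaks of these 4 genes had 12 to 31 reads.

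Of 18 genes known as targets or counterparts of GFI1 and GFI1B, 11 (61.1%) had a GATA2 peak and 5 (27.8%) a 9aa-Ins peak. Within 10 kb of the start, 7 (38.9%) had a GATA2 peak, against 21.7% of all genes, and 4 (22.2%) a 9aa-Ins peak, against 5.53%. Cebpe, a gene for a late neutrophil factor, had a shared peak 6.2 kb downstream with 47 reads with GATA2 and WGATAR, and its 9aa-Ins peak, 5.83 kb downstream, had 10 reads. Egr1, a gene for a monocyte factor, had a shared peak 1.09 kb downstream with 31 reads and no WGATAR. The nearest GATA2 peak of Cebpa, a gene for a myeloid factor, was also shared, with 13 reads 0.164 kb downstream. Spi1, the gene for PU.1, had 4 GATA2 peaks of at most 12 reads and no 9aa-Ins peak. Meis1, a stem cell homeobox gene, had a peak of 31 reads with WGATAR 48.7 kb downstream, and Cdkn1a, a cell cycle inhibitor gene, had 8 GATA2 peaks of at most 30 reads. Cdkn1a also had 2 9aa-Ins peaks, of which the nearest, 4.38 kb downstream with 14 reads, overlapped no GATA2 peak. The others with GATA2 peaks were Csf1, Csf1r, Irf8, Bcl2l1 and Gata2, with tallest peaks of 13 to 36 reads. That of Bcl2l1, 42.4 kb downstream with 34 reads and WGATAR, overlapped a 9aa-Ins peak of 10 reads, unlike the tallest peaks of Gfi1 and Gfi1b.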

How the data were processed

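Peak lists of anti-HA CUT&Tag were analysed, 1 for each construct. By the study's methods, the authors used Bowtie2 for alignment to mm10, dropped duplicate and blacklisted reads, and called peaks with MACS3 at a q-value of 1e-06; versions were not given in the sources used here. The methods describe merging of peaks called in each replicate, whereas each deposited list had a single background, so how the lists were merged is not settled. The deposited fold enrichment, a ratio, is the pileup plus 1 over the background plus 1. The deposited −log10 q-value and summit offset (bp from the peak start) were used as given, and 0 columns belonged to other samples.

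Fold enrichments were whole multiples of 1 step, so pileups were recovered; 100% were whole within 0.01 of a step. Rank was by fold enrichment. Overlap needed 1 bp. Motifs were searched within 100 bp of each summit on both strands of GRCm38, with GENCODE M21 genes. The scripts were tested on simulated data (Python 3.11.15, numpy 2.4.6, pandas 2.3.3, SciPy 1.17.1, matplotlib 3.10.9). Named genes were Gfi1, Gfi1b, genes under or nearest to their peaks, listed partner genes with a peak within 100 kb, and the 3 nearest genes by likeness. The values of 1 listed gene are not reported here. The members and lists were chosen with earlier results of these data known. With 1 merged list for each construct no test was made. Alternatives were other distance limits, thresholds, overlap rules, motif windows and rankings.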

Additional observations from a re-analysis of the deposited data

How the results depend on the processing

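Of 29 alternatives, 20 left a value within 1.5 times of the one reported and 9 moved it further. Within 200 kb, Gfi1 had 8 GATA2 peaks. Counting only peaks whose nearest protein-coding start was that of the gene, Gfi1b had 1. Ranked by peak width, the tallest peaks of Gfi1 and of Gfi1b, each 894 bp wide, both stood at 292. Counts of listed partner genes were lower within 10 kb, in 5 of 6 cases by more than 1.5 times. The count of 0 shared peaks at the loci was the same under reciprocal overlap of 50%, summits within 1 kb and a q-value of 1e-10, and no 9aa-Ins peak came within 200 kb. WGATAR lay whole within 50 bp of the summit in 6 of the 12 peaks and anywhere in the peak in 9, against 18.3% and 41.3% of all GATA2 peaks. No paired analysis was possible because both replicates are merged in the files, and for that reason replicates could not be left out in turn. Depth limits peaks of 10 to 16 reads most.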
